A study of Rattus norvegicus with 12 samples.

Results

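The genes described here are Il11, Il6, Lif and Clcf1, which encode secreted cytokines of the interleukin-6 (IL-6) family, Il6st, Osmr and Lifr, which encode their signalling receptors, and Socs3, a feedback inhibitor. These 8 genes were taken by symbol from the gene tables of a rat RNA sequencing study, which list 20400 genes between them, and all 8 are present in both tables. The set was selected on the differences of its genes between treated and control libraries in these tables, so their values, intervals and counts of calls describe these libraries and support nothing further. Each member passed the filter on low values, a mean of at least 1 normalized count, in both comparisons.

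The study sequenced 12 libraries from wild-type (WT) rat cells of bone marrow, kept in chondrogenic induction medium, in 4 groups of 3 libraries. BMSC-C are untreated bone marrow mesenchymal stem cells (BMSCs), and BMSC-CT are BMSCs given CTGF, a growth factor of connective tissue, over 1 week, with transforming growth factor TGF-β1 afterwards. The design text calls the latter fibrotic. BF-C are cells labelled as fibrotic BMSCs and named induced fibrotic chondrocytes in that text, without further treatment, and BF-D are the same cells given docetaxel, a taxane known to stabilize microtubules. Nothing in the labels states how the BF cells were made, the dose or time of docetaxel, or the strain and age of the rats, or whether replicates are separate cultures or animals. The p-values given below therefore set a difference only against the spread between libraries, which may be technical.

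IL-6 family cytokines signal through receptor complexes that contain gp130, the product of Il6st. IL-6 and IL-11 first bind their own private receptors, whereas leukaemia inhibitory factor, the product of Lif, and the cardiotrophin-like factor of Clcf1 bring gp130 together with the receptor encoded by Lifr, and oncostatin M also uses the one encoded by Osmr. The complexes activate Janus kinases, the transcription factor STAT3 and the ERK cascade, and STAT3 in turn induces Socs3, whose product binds gp130 and dampens the signal. In connective tissue cells TGF-β is a known inducer of Il11, and the family is studied in cartilage and in fibrosis.

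Libraries held 15580310 to 19870047 reads. Library BMSC-CT 3 stood apart from its group: it had reads for 14621 genes against 16100 and 16443, 15.6% of its reads were of ribosomal protein genes against 5.44% and 6.69%, and its Pearson r with the other BMSC-CT libraries was 0.835 and 0.864 against 0.977 between those. Library BF-D 2 also differed from its group, with 2.90% ribosomal protein reads against 1.72% and 1.86%. In both libraries long genes were low relative to the rest of the group. The Spearman rho between gene length and the deviation from the mean of the group's other libraries was -0.48 in BMSC-CT 3 and -0.50 in BF-D 2, across 13576 and 13570 genes. Values without these libraries are given beside the results that they change. Markers of macrophages, 15 of 15 with reads, took 0.855% to 1.03% of reads in BMSC-C and 1.07% to 1.36% in BMSC-CT, with Lyz2 the highest. The list went both ways: 6 of the 15 had higher means in BMSC-CT, among them Lyz2 (4066 and 8102 RPM, reads scaled to the library total), and 9 had lower means, among them Adgre1 (3145 and 963 RPM) and Ptprc (86.6 and 44.4 RPM). In the BF groups 11 of the 15 were in the table and together took 0.00407% to 0.00628% of reads. Mesenchymal markers, 11 of 11 with reads and Col1a1 the highest, took 0.456% to 0.510% in BMSC-C, 0.586% to 1.24% in BMSC-CT and 4.66% to 6.36% in the BF groups. In BMSC-CT, 4 of these 11 had higher means than in BMSC-C, among them Col1a1 (1645 and 6614 RPM), and 7 had lower means, among them Pdgfra (1009 and 107 RPM), Thy1 (653 and 197 RPM) and Cxcl12 (236 and 1.51 RPM). Chondrocyte markers took at most 0.0818% in any library, and Col2a1 in the BMSC groups and Acan in the BF groups were not analysed here. In such bulk RNA, fewer cells of a type and less RNA per cell cannot be told apart.

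The first comparison is between BMSC-CT and BMSC-C, the culture with and without the 2 growth factors. All 4 ligand transcripts were lower in each BMSC-CT library than in any BMSC-C library. In BMSC-CT, Il11 had 4 to 23 reads a library and Il6 13 to 32. Lif had 31 to 414 reads and Clcf1 38 to 92, both lowest in BMSC-CT 3. The receptor transcripts were also lower, but by an amount that depended on library BMSC-CT 3, and Socs3 overlapped between the groups in normalized counts. Values are the authors' normalized counts, and differences are treated minus control on the log2(normalized count + 1) scale.

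Il11 stood at 13747, 10186 and 13999 normalized counts in the BMSC-C libraries and at 20.8, 11.6 and 6.44 in the BMSC-CT libraries. The treated values came from 23, 11 and 4 reads, and no treated library came near a control library. The log2 difference was -9.95 (SE 0.41, 95% interval -10.93 to -8.96), and the control mean was 976 times the treated mean. This was the lowest log2 difference among the 16818 genes tested in this table. Without BMSC-CT 3 it was -9.56.

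Il6, the pro-inflammatory cytokine that gives the family its name, stood at 5497, 4562 and 4697 normalized counts in BMSC-C and at 11.8, 33.8 and 25.8 in BMSC-CT. All treated libraries were far below all controls, with 13, 32 and 16 reads. Treated minus control came to -7.75 (SE 0.39, 95% interval -8.69 to -6.80), the twelfth lowest of the table and -7.86 without BMSC-CT 3.

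Since Il11 and Il6 were the ligands with the lowest means after CTGF and TGF-β1, the 250 bases before their annotated starts are shown, from RefSeq on the rat build GRCr8. The Il11 stretch is at chr1:78098372-78098621 on the plus strand and the Il6 stretch at chr4:5894576-5894825 on the minus strand, both written 5′ to 3′ along the gene. Capitals mark matches to an AP-1 motif in Il11, and to a CRE, a C/EBP and an NF-kappaB motif, in that order, in Il6.
Il11: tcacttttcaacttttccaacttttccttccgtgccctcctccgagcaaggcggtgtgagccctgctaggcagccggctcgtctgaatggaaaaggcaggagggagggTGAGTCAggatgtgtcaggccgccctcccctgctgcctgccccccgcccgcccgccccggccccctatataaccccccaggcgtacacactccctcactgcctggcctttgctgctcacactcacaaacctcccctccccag
Il6: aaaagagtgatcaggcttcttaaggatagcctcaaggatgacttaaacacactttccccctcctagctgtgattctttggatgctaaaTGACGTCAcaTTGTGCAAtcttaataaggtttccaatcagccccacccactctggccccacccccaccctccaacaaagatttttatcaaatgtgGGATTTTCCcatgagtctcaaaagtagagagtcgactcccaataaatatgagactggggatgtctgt
The motifs searched on both strands were AP-1 (TGANTCA), STAT (TTCNNNGAA), NF-kappaB (GGANTTTCC), CRE (TGACGTCA) and C/EBP (TTNNGCAA). Windows of 300 bases, 250 before and 50 after the listed start, were used for the search. Of 33469 such windows, 7.33% held the AP-1, 8.87% the STAT, 1.28% the NF-kappaB, 1.83% the CRE and 10.6% the C/EBP motif. In Il11 the AP-1 match began 142 bases before the start. In Il6 the CRE match began 162, the C/EBP match 152 and the NF-kappaB match 67 bases before the start. Among the other members with an entry, Osmr held an AP-1 match, TGATTCA, 33 bases before its start, and the windows of Il6st, Lifr and Socs3 held none of these letters. A window without a match does not show that the promoter of the gene lacks the motif, since the window may not cover that promoter. RefSeq's table had entries for 6 of the 8 members, without Lif and Clcf1. These matches describe the sequence only, and the listed start need not be the one used in these cells.

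Lif, a cytokine known for keeping stem cells undifferentiated, stood at 3940, 2538 and 3300 normalized counts in BMSC-C and at 374, 397 and 49.9 in BMSC-CT. The treated libraries were all below the controls, and BMSC-CT 3 held 12.9% of the mean of the other 2. On the log2 scale the difference was -4.03 (SE 0.79, 95% interval -5.93 to -2.13), and -3.05 without BMSC-CT 3. Clcf1, whose product is known to stimulate B cells, stood at 919, 924 and 1045 in BMSC-C and at 59.7, 97.1 and 61.2 in BMSC-CT. Here BMSC-CT 3 lay between the other treated libraries. This gave a log2 difference of -3.74 (SE 0.27, 95% interval -4.40 to -3.09), and -3.64 without BMSC-CT 3.

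Among the receptors, Il6st stood at 4494, 3999 and 3271 normalized counts in BMSC-C and at 1961, 1516 and 33.8 in BMSC-CT. The treated libraries were all lower, and BMSC-CT 3 held 1.94% of the mean of the others. The log2 difference of -3.05 (SE 1.48) had a 95% interval of -6.59 to 0.49, and without BMSC-CT 3 the difference was -1.17 (95% interval -1.59 to -0.76). Osmr, the oncostatin M receptor chain, stood at 2553, 2239 and 1680 in BMSC-C and at 628, 535 and 25.8 in BMSC-CT. Its log2 difference was -3.35 (95% interval -6.17 to -0.53), and -1.87 (95% interval -2.31 to -1.43) without BMSC-CT 3. Lifr, the receptor chain for leukaemia inhibitory factor, was the least abundant receptor, with 136, 135 and 106 normalized counts in BMSC-C and 18.1 and 8.44 in BMSC-CT 1 and BMSC-CT 2. BMSC-CT 3 had 0 Lifr reads, which allows up to 3 reads or 0.174 RPM. The Lifr difference was -4.47 on the log2 scale (95% interval -7.01 to -1.93), and -3.23 without BMSC-CT 3. In BMSC-CT 3, the library in which long genes were low, these receptor transcripts of 2894 to 5388 bases (gene lengths as deposited) were at most 4.43% of the mean of the other treated libraries. Il6 (1045 bases) was at 113%, Clcf1 (2257 bases) at 78.1%, Lif (2226 bases) at 12.9%, Il11 (1691 bases) at 39.8% and Socs3 (863 bases) at 35.3%. The part of this library's profile in the receptor values was not tested beyond leaving it out.

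Socs3, the feedback inhibitor, stood at 1374, 1870 and 2761 normalized counts in BMSC-C and at 1212, 1428 and 465 in BMSC-CT. BMSC-CT 2 lay above BMSC-C 1, so the groups overlapped in normalized counts, unlike those of the other 7 members. Scaled to the library total they did not overlap, with 94.3 to 181 RPM in BMSC-C and 16.7 to 82.6 RPM in BMSC-CT. The log2 difference was -1.05 (SE 0.48, 95% interval -2.20 to 0.11), and -0.55 without BMSC-CT 3.

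**Figure D1:**
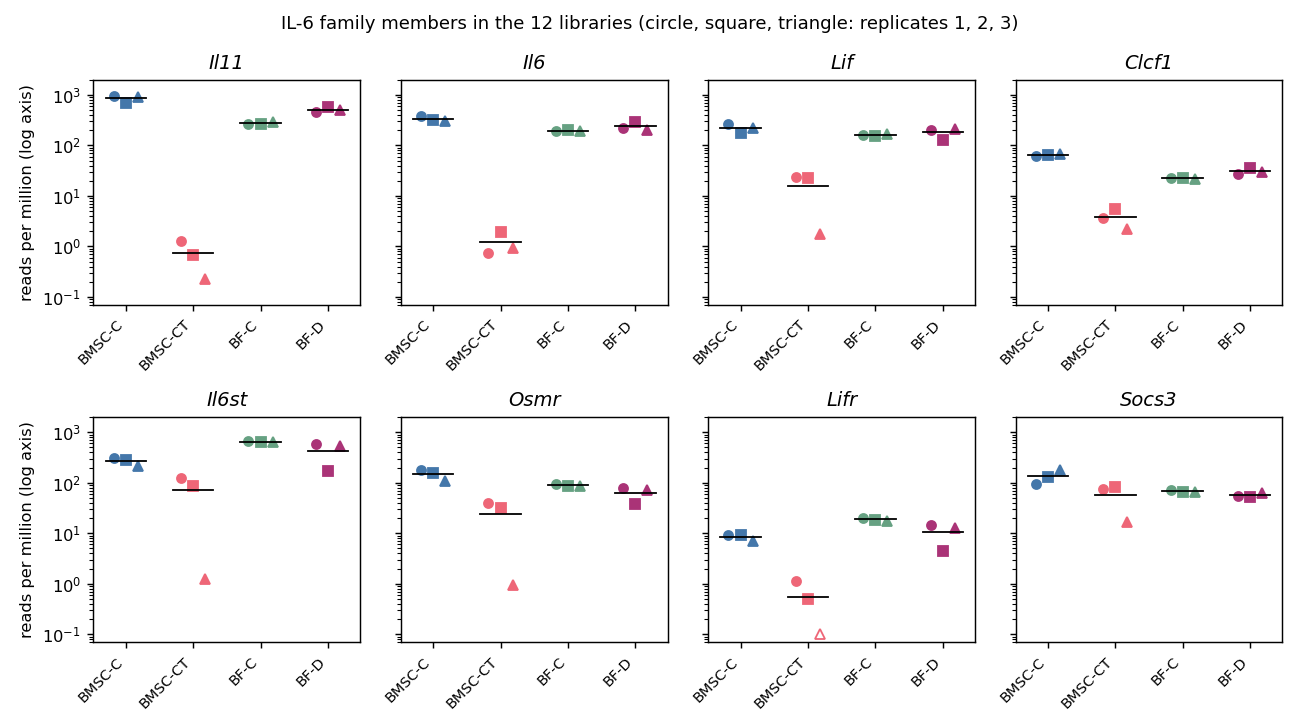
Reads scaled to the library total (RPM, log axis) of the 8 members in each of the 12 libraries, 1 panel per gene; circles, squares and triangles are replicates 1, 2 and 3, the bar is the group mean, and the open triangle marks Lifr with 0 reads, drawn at the bottom of the axis. All BMSC-CT points lie below all BMSC-C points, narrowly for Socs3, whose normalized counts overlap, and library BMSC-CT 3 lies far below its group for Il6st, Osmr and Lif.

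In normalized counts, 7 of 8 members were thus lower without overlap in BMSC-CT, where 28.9% of all genes tested were. By limma, 5 of the 8 had an adjusted p under 0.05 (Il11, Il6, Lif, Clcf1 and Lifr), all lower, where 10.9% of all genes were called lower and 18.6% were called in either direction. Both counts use the contrast by which the genes were chosen and are given only as a description. Without BMSC-CT 3, 7 of 8 were called, all lower, where 43.0% of all genes were called and 23.5% were called lower. With any 1 of the BMSC-C libraries left out, 3 of 8 were called, namely Il11, Il6 and Clcf1. Over all genes, 736 to 1258 were called in those fits, 487 to 796 of them lower. The summed shares of macrophage and of mesenchymal markers were higher in each BMSC-CT than in each BMSC-C library, while 9 of 15 and 7 of 11 of the single markers had lower means there, and the part of these markers in the differences was not tested.

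The make-up of the ligand set differed as well as its level. In RPM per kilobase of gene length, a scale that allows levels to be compared between genes, the 4 ligands summed to 828 to 1069 in BMSC-C and to 2.80 to 15.1 in BMSC-CT. Il11 made up 50.5% to 56.2% of that sum in BMSC-C and 2.64% to 5.64% in BMSC-CT. Lif made up 9.55% to 11.4% in BMSC-C and 28.8% to 77.1% in BMSC-CT, and it was the largest share in BMSC-CT 1 and BMSC-CT 2. The shares in BMSC-CT 3 rest on few reads, 4 for Il11 and 31 for Lif.

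**Figure D2:**
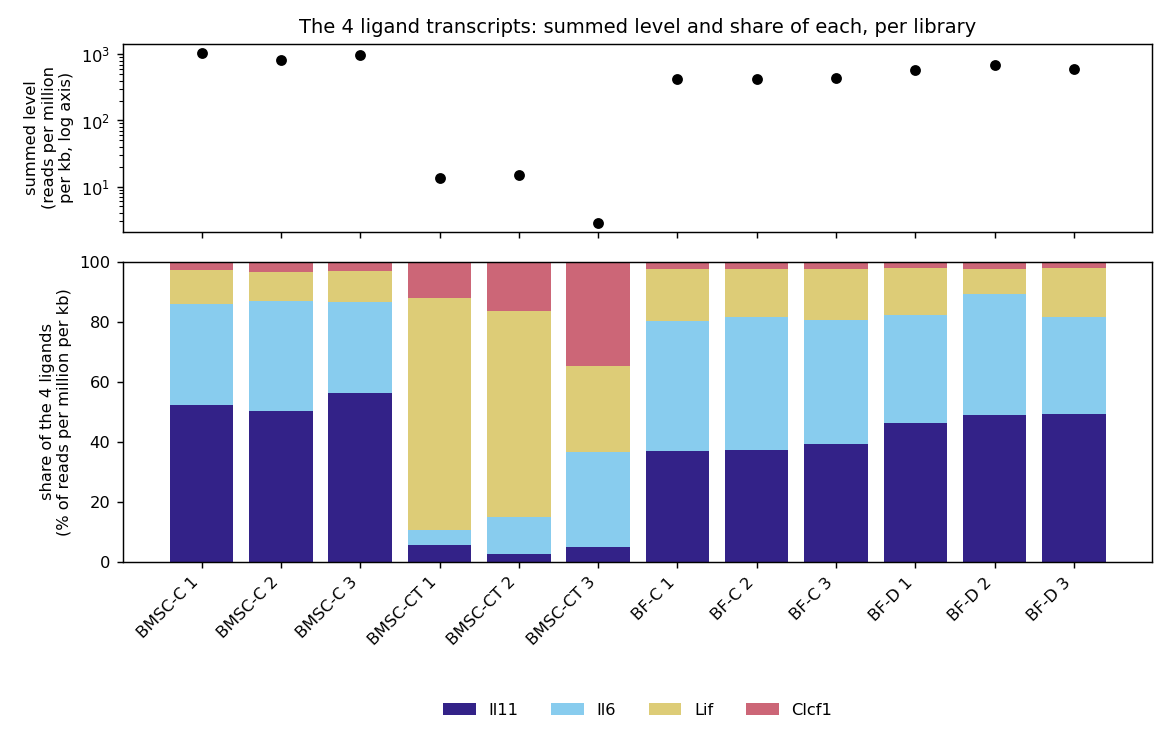
Top, the summed level of the 4 ligand transcripts in RPM per kilobase (log axis) in each library; bottom, the percentage of that sum taken by each ligand, as stacked bars. Il11 takes 50.5% to 56.2% in BMSC-C but 2.64% to 5.64% in BMSC-CT, and 37.1% to 39.2% in BF-C but 46.4% to 49.4% in BF-D.

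The other genes of the pathway were read from 8 lists with 86 genes, of which 80 were tested in this table. Of the 80, 5 rose, 25 fell and 50 did not pass (limma, adjusted p under 0.05), and their median log2 difference was -0.80 against -0.15 over all genes tested, and -0.40 against -0.08 without BMSC-CT 3. Over all genes 1295 (7.70%) rose and 1839 (10.9%) fell. With total-read scaling those numbers were 787 and 1967 and the median was -0.53, and with quantile normalization they were 1929 and 1794 and the median was 0.08. Without BMSC-CT 3, 12 pathway genes rose and 33 fell, where 19.5% and 23.5% of all genes did. Without BMSC-C 1 or BMSC-C 2 only 15 were called, where 800 and 736 of all genes were called. Of the 30 called, 15 remained called with any 1 library left out.

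Among the other family ligands, 1 of 6 rose and none fell by limma at adjusted p under 0.05, and the unadjusted p was under 0.05 for the same gene alone; without BMSC-CT 3, 1 rose and 2 fell. Ebi3, a subunit shared by IL-27 and IL-35, rose from 1289 ± 234 to 3320 ± 1253 normalized counts (SD, n = 3), a log2 difference of 1.31 with a limma adjusted p of 0.0333. That call was lost without BMSC-C 1, 2 or 3 or BMSC-CT 2, with an adjusted p of up to 0.140. Osm, which encodes oncostatin M, stood at 125 ± 19.1 and 74.8 ± 17.0, with a limma adjusted p of 0.136, and of 0.0363 without BMSC-CT 3. Of the other receptors, none of 4 passed with limma, 1 was higher at an unadjusted p under 0.05, and DESeq2 called 1. Il11ra1, the private receptor of IL-11, stood at 802 ± 171 in BMSC-C and 2078 ± 1269 in BMSC-CT (log2 difference 1.23, limma adjusted p 0.0881). Without BMSC-CT 3 the Il11ra1 difference was 0.77 with an adjusted p of 0.0180. Il6r, the private receptor of IL-6, stood at 285 ± 15.5 and 215 ± 55.1 (limma adjusted p 0.271).

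Of the signal transducers 1 of 11 fell, and without BMSC-CT 3, 3 rose and 3 fell. The gene that fell with all libraries was Jak2, a Janus kinase bound to gp130, which went from 3597 ± 668 to 805 ± 232 normalized counts (log2 difference -2.18, limma adjusted p 0.00427). Stat3 stood at 5028 ± 189 and 3193 ± 1014 (limma adjusted p 0.12, and 0.0294 without BMSC-CT 3). Stat5a stood at 508 ± 120 and 910 ± 112 (limma adjusted p 0.0526, and 0.00633 without BMSC-CT 3). Of 12 other negative regulators 4 fell and 1 rose. Cish, a member of the Socs family, fell from 778 ± 148 to 214 ± 41.8 (log2 difference -1.86, limma adjusted p 0.00594). Ptpn6, a phosphatase abundant in blood cells, rose from 1231 ± 261 to 3839 ± 515 (log2 difference 1.65, limma adjusted p 0.00594). Of the macrophage markers 6 had higher and 9 lower means in BMSC-CT, Ptprc among the latter, and their part in the Ptpn6 difference was not tested. Socs5 and Ptpn2, also inhibitors of cytokine signalling, fell by 1.97 and 1.51 on the log2 scale, with limma adjusted p of 0.00867 and 0.0142. The Socs5 call was lost without BMSC-C 1 or 2 (adjusted p up to 0.0592), and the Ptpn2 call without BMSC-C 1 or 2 or BMSC-CT 2 (up to 0.0882).

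Of 18 known targets of STAT3, 7 fell and 2 rose, with a median log2 difference of -0.90. Without BMSC-CT 3, 9 fell and 3 rose, and the median was -0.56. Ccnd1, which encodes the cell cycle regulator cyclin D1, fell from 4018 ± 366 to 635 ± 35.9 normalized counts (log2 difference -2.66, limma adjusted p 0.000634). The acute-phase genes Hp, for haptoglobin, and Lbp, for a lipopolysaccharide binding protein, fell by 3.50 and 1.53 on the log2 scale (limma adjusted p 0.000688 and 0.0045). Bcl3, a partner of NF-kappaB, rose by 1.13, with a limma adjusted p of 0.0148 and of up to 0.0873 without BMSC-C 1 or 2 or BMSC-CT 2. Of 18 known targets of ERK signalling, 10 fell and 1 rose, with a median log2 difference of -2.05. Without BMSC-CT 3, 12 fell and 2 rose, and the median was -1.44. Dusp4, named after its values were seen, differed by 1.70 with all libraries (limma adjusted p 0.113). Without BMSC-CT 3 the Dusp4 difference was 2.51 (limma adjusted p 1.2e-05). Phlda1 fell from 5683 ± 1054 to 460 ± 80.3 and Spry1, which encodes a feedback inhibitor of receptor kinases, from 3187 ± 244 to 301 ± 93.6. Their limma adjusted p were 0.000515 and 0.00111. Spry4, another Sprouty inhibitor, fell by 2.50 on the log2 scale, and the immediate-early gene Egr1 fell by 2.77 (limma adjusted p 0.00204 and 0.00185). With all libraries, the remaining genes that rose were Bcl2l1 and Etv5, named after their values were seen. The Bcl2l1 call was lost without BMSC-C 1, 2 or 3 or BMSC-CT 2 (adjusted p up to 0.0903), and the Etv5 call without any library except BMSC-CT 3 (up to 0.128).

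Of 7 AP-1 subunits, whose complex binds the motif marked in the Il11 sequence, 2 fell. Fosl1 fell from 621 ± 48.8 to 71.7 ± 4.18 normalized counts (log2 difference -3.10, limma adjusted p 0.000796) and Fos from 81.2 ± 23.1 to 15.0 ± 4.8 (-2.37, limma adjusted p 0.0161). The Fos call was lost without BMSC-C 1 or 2 (adjusted p up to 0.0967). The other subunits did not pass and went both ways. Jund was higher in every BMSC-CT library, at 3621 ± 1451 and 8380 ± 3554 (log2 difference 1.22, limma adjusted p 0.0889). Junb and Jun differed by 0.21 and -0.17 (limma adjusted p 0.605 and 0.669). Fosl2 and Fosb differed by -1.39 and -0.91 (limma adjusted p 0.225 and 0.411). Without BMSC-CT 3 the differences were -0.43 for Fosl2, -0.14 for Fosb, 0.10 for Jun, 0.13 for Junb and 0.90 for Jund. In that fit 2 subunits fell and 0 rose, and the median of the list went from -0.91 to -0.14. Of 5 cytokines known to induce the family, Il1a, for interleukin-1 alpha, fell from 4237 ± 542 to 698 ± 407 (log2 difference -2.84, limma adjusted p 0.0182), a call lost without any 1 of the BMSC-C libraries (adjusted p up to 0.0904). Il1b stood at 15099 ± 3713 and 13085 ± 4678 (limma adjusted p 0.597). Tgfb1 and Tgfb3, which encode TGF-β isoforms, stood 0.82 and 0.66 higher on the log2 scale, with limma adjusted p of 0.104 and 0.101.

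The second comparison is between BF-D and BF-C, the labelled fibrotic cells with and without docetaxel. Differences were far smaller than in the first comparison and ran in both directions. The ligand transcripts Il11, Il6 and Clcf1 were higher in every BF-D library than in any BF-C library, with Il11 the farthest apart. The receptors Il6st, Osmr and Lifr and the inhibitor Socs3 were lower in every BF-D library, with library BF-D 2 the lowest in each case. Lif overlapped.

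Il11 stood at 4515, 4564 and 4882 normalized counts in BF-C and at 7675, 9434 and 8295 in BF-D. The gap between the groups was wider than the spread within either. Treated minus control came to 0.86 (SE 0.10, 95% interval 0.63 to 1.09), a ratio of means of 1.82, and 0.78 without BF-D 2. Il6 stood at 3262, 3357 and 3204 in BF-C and at 3691, 4773 and 3365 in BF-D. BF-D 3 lay just above the highest control, and BF-D 2 was the highest. On the log2 scale the difference was 0.25 (95% interval -0.05 to 0.55), and 0.11 without BF-D 2, where the interval was 0.00054 to 0.21.

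Clcf1 stood at 381, 378 and 367 normalized counts in BF-C and at 458, 598 and 487 in BF-D. The BF-D libraries were all higher, with BF-D 2 again the highest. This gave a log2 difference of 0.44 (95% interval 0.15 to 0.74), and 0.33 without BF-D 2. Lif stood at 2764, 2579 and 2794 in BF-C and at 3370, 2125 and 3546 in BF-D. BF-D 2 lay below all controls and the other treated libraries above them. The log2 difference was 0.12 (95% interval -0.31 to 0.54), 0.35 without BF-D 2 and -0.02 without BF-D 3.

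Il6st stood at 11536, 10851 and 10591 normalized counts in BF-C and at 9664, 2888 and 8912 in BF-D. BF-D 2 held 31.1% of the mean of the other BF-D libraries. Treated minus control came to -0.80 (95% interval -1.75 to 0.14), and -0.24 (95% interval -0.34 to -0.14) without BF-D 2. Osmr stood at 1569, 1482 and 1432 in BF-C and at 1296, 641 and 1165 in BF-D, a log2 difference of -0.59 (95% interval -1.15 to -0.04) that was -0.28 without BF-D 2. Lifr stood at 345, 315 and 294 in BF-C and at 239, 73.7 and 204 in BF-D. Its log2 difference was -1.04 (95% interval -1.96 to -0.12), and -0.52 (95% interval -0.76 to -0.27) without BF-D 2. All 3 receptors therefore kept their direction without that library, with smaller differences. Socs3 stood at 1189, 1129 and 1091 in BF-C and at 917, 871 and 1024 in BF-D. Its log2 difference was -0.28 (95% interval -0.51 to -0.05), and -0.23 without BF-D 2.

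**Figure D3:**
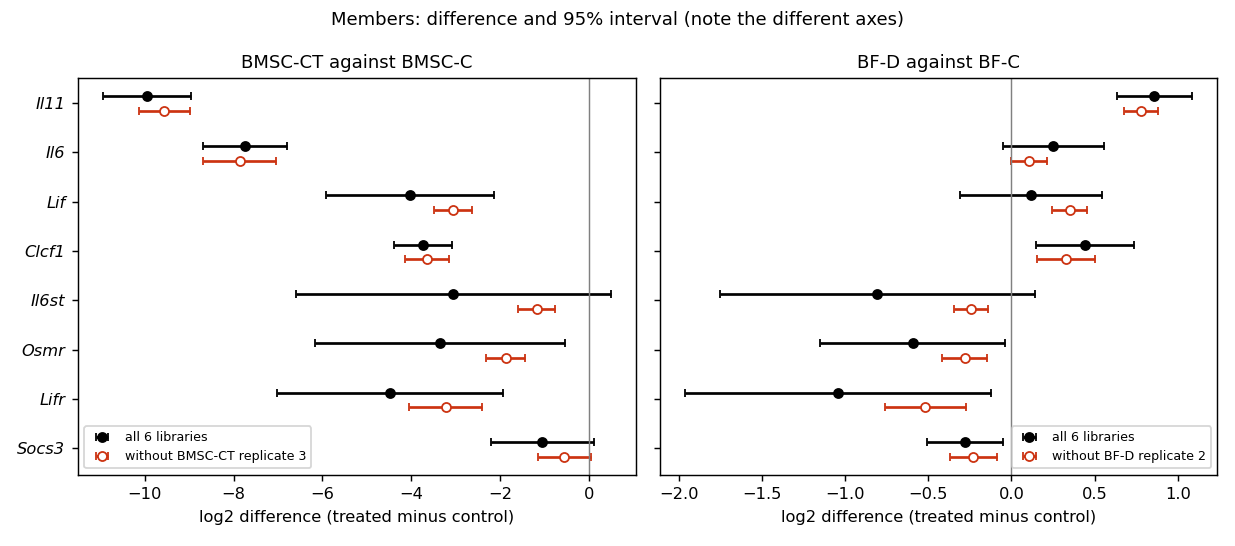
Log2 difference, treated minus control, with its 95% interval for each member; left BMSC-CT against BMSC-C, right BF-D against BF-C, on different axes. Filled points use all 6 libraries and open points leave out BMSC-CT 3 or BF-D 2; without these libraries Il6st moves from -3.05 to -1.17 on the left and from -0.80 to -0.24 on the right, while Il11 moves from -9.95 to -9.56 and from 0.86 to 0.78.

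Higher values without overlap were thus found for 3 of 8 members, where 7.78% of all genes tested were, and lower values without overlap for 4 of 8, where 9.04% were. By limma 0 of 8 members had an adjusted p under 0.05, while unadjusted values under 0.05 were found for 2 higher and 3 lower members. Of all genes 0.0117% were called, 0.00586% higher and 0.00586% lower. At an unadjusted limma p under 0.05, 556 of the 17076 genes tested were higher and 502 were lower. On the recovered reads edgeR called 0 members and DESeq2 called 1, Il11, where DESeq2 called 72 of all genes. Without BF-D 2, limma called 5 members, 2 higher and 3 lower, where 1.54% of all genes were called, 0.729% higher and 0.811% lower. These counts too come from a contrast used in the choice of the genes. The macrophage marker list was near 0 in both BF groups, with at most 0.00628% of reads, and the mesenchymal list took 6.13% to 6.36% in BF-C and 4.66% to 5.73% in BF-D; the part of the latter in these differences was not tested.

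Per kilobase, the 4 ligands summed to 428 to 442 RPM in BF-C and to 590 to 687 in BF-D. Il11 made up 37.1% to 39.2% of the sum in BF-C and 46.4% to 49.4% in BF-D, and Il6 41.6% to 44.4% and 32.4% to 40.2%. The order of the 2 main ligands was thus reversed: the ratio of Il11 to Il6 per kilobase was 0.840 to 0.941 in BF-C and 1.22 to 1.52 in BF-D. In BMSC-C that ratio was 1.38 to 1.84. Of the summed level of the 3 receptors, Il6st took 85.9% to 86.1% in BF-C and 79.8% to 86.7% in BF-D, with the lowest share in BF-D 2.

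Of the other pathway genes, 79 were tested in this comparison and none passed with limma, while 13 were higher and 4 lower with an unadjusted p under 0.05. Of all 17076 genes tested, 556 were higher and 502 lower at that unadjusted p. The median log2 difference was -0.03, against -0.0044 over all genes tested, and 0.02 against -0.0038 without BF-D 2. On the recovered reads edgeR called 0 and DESeq2 called 3, Steap4, Il1b and Tgfb3, where DESeq2 called 72 of all genes. Without BF-D 2, limma called 8 higher and 5 lower, where 0.729% and 0.811% of all genes were. Il1b, for interleukin-1 beta, stood at 12.4 ± 3.10 normalized counts in BF-C and 45.5 ± 9.11 in BF-D (SD, n = 3), a log2 difference of 1.80 with a limma adjusted p of 0.318, and of 0.0478 without BF-D 2. Tgfb3 stood at 911 ± 27.2 and 1344 ± 141 (0.56, limma adjusted p 0.413, and 0.00156 without BF-D 2). Steap4, a metalloreductase gene and STAT3 target, stood at 179 ± 11.1 and 85.4 ± 8.23 (-1.06, limma adjusted p 0.230, and 0.00307 without BF-D 2). Of the ERK targets, Phlda1 stood at 2348 ± 168 and 3137 ± 230 (0.42, limma adjusted p 0.510, and 0.00839 without BF-D 2) and Ier3 at 5974 ± 235 and 9725 ± 2629 (0.67, limma adjusted p 0.647, and 0.00015 without BF-D 2). Among the family's other receptors, Il11ra1 stood at 979 ± 79.2 and 1134 ± 235 (0.20, limma adjusted p 0.706). Il6r stood at 202 ± 15.2 and 167 ± 52.5 (-0.32, limma adjusted p 0.706), and none of the 4 receptors had an unadjusted p under 0.05. Without BF-D 2 the log2 differences of Il11ra1 and Il6r were 0.03 and -0.09.

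**Figure D4:**
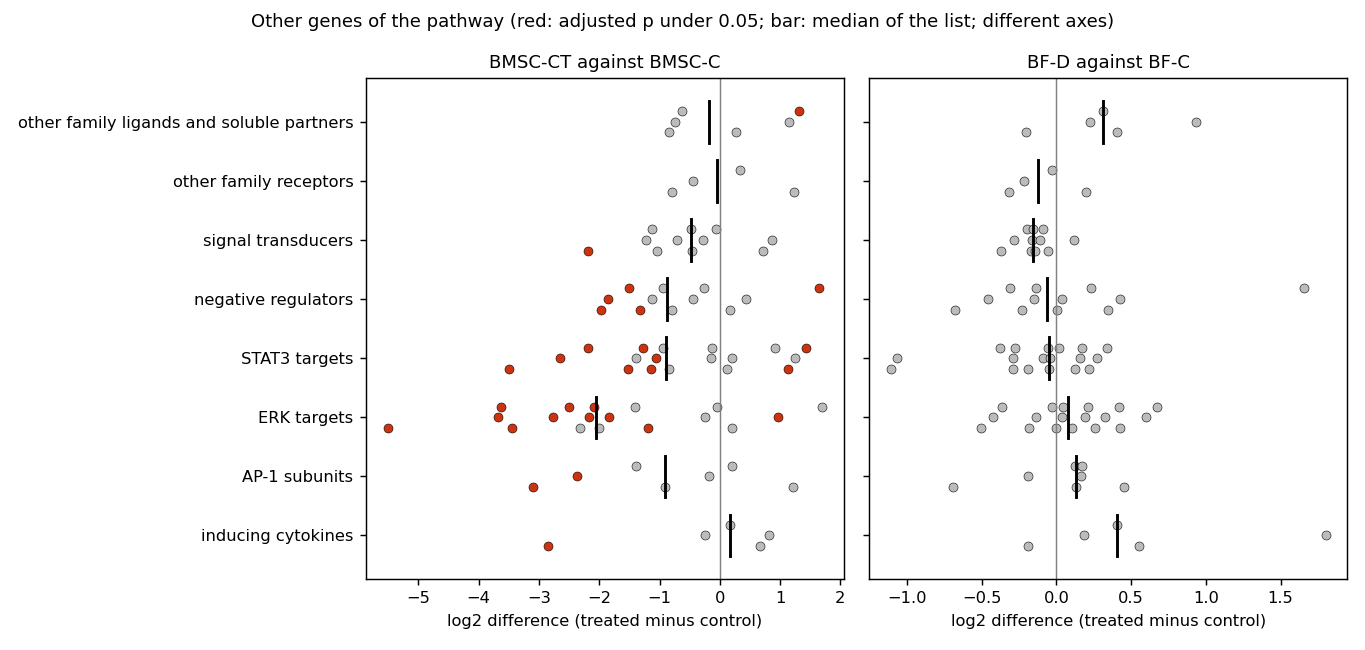
Log2 differences, treated minus control, of the other pathway genes by list, left BMSC-CT against BMSC-C and right BF-D against BF-C, on different axes; each point is a gene, red where the limma adjusted p is under 0.05, and the black bar is the median of the list. In the left panel 25 of 80 points are red and lower and 5 red and higher, with the ERK target median at -2.05; in the right panel 0 of 79 are red.

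The study's own pathway analysis touches some of these genes. The authors' deposited table of KEGG terms for BF-D against BF-C lists a JAK-STAT term of 18 genes, 11 higher and 7 lower, that includes Il11, Osmr, Lifr and Socs3. In the authors' deposited table of genes, 3 of those 18 have an adjusted p under 0.05. The authors' deposited table for BMSC-CT against BMSC-C lists a term for cytokine and cytokine receptor interaction with 94 genes, 27 higher and 67 lower, that includes Il11, Il6, Lif, Clcf1, Osmr and Lifr. The same term is listed for BF-D against BF-C, with 37 genes, 30 higher and 7 lower, including Il11, Clcf1, Osmr and Lifr.

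The 2 tables were normalized separately, so levels across the 4 groups are described in RPM and were not tested. Il11 averaged 856 ± 130 RPM in BMSC-C, 513 ± 54.1 in BF-D, 277 ± 13.4 in BF-C and 0.734 ± 0.537 in BMSC-CT (SD, n = 3). Il6 ran in the same order, with 334 ± 37.7, 239 ± 44.0, 195 ± 3.91 and 1.20 ± 0.656, as did Clcf1, with 65.3 ± 2.93, 31.1 ± 4.47, 22.4 ± 0.338 and 3.85 ± 1.71. For these 3 ligands no neighbouring groups in the order overlapped. Lif averaged 221 ± 47.4 in BMSC-C, 183 ± 47.3 in BF-D and 162 ± 7.45 in BF-C, which overlapped, and 16.1 ± 12.4 in BMSC-CT. BMSC-CT thus had the lowest level of each ligand, and the BF groups lay between it and BMSC-C in their means.

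The receptors were ordered differently. Il6st averaged 655 ± 26.5 RPM in BF-C, 433 ± 225 in BF-D, 267 ± 47.7 in BMSC-C and 70.5 ± 62.5 in BMSC-CT, and BF-D overlapped BMSC-C because of BF-D 2. Lifr had the same order, with 18.9 ± 1.44, 10.4 ± 5.28, 8.53 ± 1.38 and 0.540 ± 0.567, and the same overlap. Osmr was highest in BMSC-C, at 147 ± 33.3, followed by BF-C at 89.1 ± 3.76, BF-D at 62.6 ± 21.0 and BMSC-CT at 23.7 ± 20.2, the last 2 overlapping. Socs3 averaged 135 ± 43.7 in BMSC-C, 67.7 ± 2.66 in BF-C, 58.4 ± 36.2 in BMSC-CT and 56.8 ± 5.04 in BF-D, and BMSC-CT overlapped both BF groups. As a ratio per kilobase, the summed ligands stood at 9.29 to 14.0 times Il6st in BMSC-C, 1.94 to 2.17 times in BF-C and 3.15 and 3.47 times in BF-D 1 and BF-D 3. In BF-D 2 the ratio was 12.2. It was 0.346 and 0.534 in BMSC-CT 1 and BMSC-CT 2, and 7.18 in BMSC-CT 3, where 21 Il6st reads were counted.

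The genes whose pattern over the 12 libraries was most like that of Il11 included Mmp3, Dner, Adm, Plat, Galnt14, Hs3st1 and Rgs16, by Pearson r of log2(RPM + 1) among 8719 genes. Their r ran from 0.993 to 0.997. The 12 libraries fall in 4 groups, so these values mostly reflect the order of 4 group means and come with no test. Mmp3, which encodes a matrix-degrading metalloproteinase, averaged 8063 RPM in BMSC-C, 5973 in BF-D, 4342 in BF-C and 434 in BMSC-CT, the order of Il11. Adm, for the peptide adrenomedullin, averaged 426, 348, 299 and 5.14 in that order of groups. Plat, for tissue plasminogen activator, averaged 421, 407, 314 and 19.6. Among the members, Il6 ranked 11 with r = 0.993, Clcf1 had r = 0.959 and Lif r = 0.928, while Osmr, Il6st and Socs3 had r of 0.767, 0.730 and 0.495.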

How the data were processed

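Libraries were made from total RNA with a NEBNext Ultra kit, per the labels' protocols, and Bowtie 0.12.2 and mm8 are named in the submitters' processing notes. Since mm8 denotes a mouse build and the IDs are Ensembl's for rat, the build and the counting method are not given in the sources used here, and deposited coordinates are not printed. For each comparison the authors deposited a table, of 18616 genes (BMSC) or 19355 genes (BF). Its signal values are normalized counts, which the authors made by dividing reads by a size factor of the library: dividing by the value of 1 read gave whole numbers, to within 0.01, for 100% of values. The authors' deposited p-values and log2 fold changes stand beside them, and the gene lengths used are also as deposited.

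The test was limma 3.58.1 in R 4.3.3 (empirical Bayes with a trend) on log2(normalized count + 1), run within each table on genes whose mean reached 1, with Benjamini-Hochberg adjustment over all genes tested. Genes with an adjusted p under 0.05 are called, and an exact permutation test of 3 against 3 cannot go below 0.1. The count tests edgeR 4.0.16 and DESeq2 1.42.0 were run on the recovered reads as alternatives, since the unit is not a raw count. The limma step was tested on simulated data. Other alternatives were scaling, pseudocount, filter, a replicate block and leaving out each library.

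The members, gene lists and rules were chosen with earlier results of these data known. Named are all members, the other ligands and receptors, up to 4 genes per list and table with the smallest adjusted p, and the 8 genes most like Il11 by Pearson r, among genes with a symbol, present in both tables and with a mean of 10 RPM or more. Some genes that this rule names are not reported here. The endothelial markers, and the lymphoid and granulocyte markers, each took at most 0.00145% of reads in any library. Genes of the lists that are in neither table (Il31, Grb2, Mcl1, Serpina3n and Tnf) were not analysed here, nor was Il31ra in the BMSC table.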

Additional observations from a re-analysis of the deposited data

How the results depend on the processing

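Over the alternatives run, the 8 members kept the direction of their log2 differences in BMSC-CT in each of 128 recomputed values, and in BF-D in 127 of 128. The exception was Lif in BF-D, whose difference ranged from -0.019 without BF-D replicate 3 to 0.35 without BF-D replicate 2. Genes called in BMSC-CT numbered 3134 of all genes, 5504 with DESeq2 and 736 to 7204 with 1 library left out, the highest without BMSC-CT replicate 3 and the lowest without BMSC-C replicate 2. Pathway genes called numbered 30, and 15 to 45 with 1 library left out, again highest without BMSC-CT replicate 3. Of 479 recomputed values for those 30 genes, 59 no longer passed and 0 changed direction. Members called numbered 5, and 3 to 7 with 1 library left out. In BF-D, 2 genes were called, 0 with a mean of at least 10, 72 with DESeq2 and 0 to 264 with 1 library left out. Pathway genes called there numbered 0, 3 with DESeq2 and 0 to 13 with 1 library left out; members called numbered 0, 1 with DESeq2, 1 with quantile normalization and 0 to 5 with 1 library left out. The high ends, 264, 13 and 5, were all without BF-D replicate 2. The member called with quantile normalization was Il11 (limma adjusted p 0.0432), and the count over all genes with that setting is not given here. Where an arm had 2 libraries, the spread was pooled over both groups. The cause of these shifts was not tested.

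Replicate numbers are shared between groups, but not every same-numbered pair deviated together, nor did every library correlate best with its own number, with correlations of 0.28, -0.03 and 0.26 in the BMSC table and 0.01, 0.01 and -0.02 in the BF table. With the replicate number as a block, 3003 genes, 31 pathway genes and 5 members were called in BMSC-CT, and 0, 0 and 0 in BF-D. At these depths the levels of Il11 and Il6 in BMSC-CT rest on 4 to 32 reads a library, and Lifr on 0 to 20.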
